A study of Mus musculus with 18 samples.

Results

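Tight junction genes were examined in mouse ES cells grown in 3D culture: the claudins Cldn3, Cldn4, Cldn5, Cldn6, Cldn7 and Cldn9, occludin (Ocln), and the zonula occludens genes Tjp1 (ZO-1) and Tjp3 (ZO-3). They were chosen by name, from the families whose proteins build and anchor the junction, and each symbol matched 1 of the 49671 genes in the count table. The data are RNA-seq counts of 18 samples, 3 in each of 6 groups. Wild-type E14 cells (labelled strain 12910la, passage 20) had been kept in Matrigel for 48 h in N2B27 medium with DMSO, with CH (the Gsk3 inhibitor CHIR99021 at 3 µM), with 2i (the same dose of CH plus 0.4 µM PD0325901, which inhibits Mek) or with Fgf2/Activin (12 ng/ml Fgf2 plus 20 ng/ml Activin A). The other 6 samples were Esrrb fl/fl ES cells from Acr-EGFP transgenic mice, passage 25, with a tamoxifen-inducible Cre (MerCreMer), grown in Matrigel in the presence of 3 µM CH during 24 h. Of these, 3 had been given 4-hydroxytamoxifen (4OHT) for 1 day beforehand to delete Esrrb and 3 had not. Floxed alleles and Cre were present in all 6, so the effects of 4OHT itself and of the deletion cannot be told apart. All lines had been maintained in 2i/Lif before the experiment. By the study's description, rosettes with an apical domain form in DMSO, in Fgf2/Activin and after Esrrb deletion, and these 3 groups are called polarised here. The cells in CH, in 2i and without 4OHT are called non-polarised. Polarity itself was not measured by the counts.

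Tight junctions seal the space between neighbouring epithelial cells just below their apical surface. Claudins are four-pass membrane proteins whose strands form the barrier, and the set of claudins in a cell decides which ions and solutes pass. Occludin, also a four-pass membrane protein, lies in the same strands. The zonula occludens proteins bind claudins and occludin from the inside of the cell and tie them to the actin cytoskeleton. In the embryo such junctions border the lumen that opens in the epiblast as it becomes an epithelium around implantation.

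Counts on genes summed to 25388139 to 37158661 for each wild-type sample and to 19915222 to 20140699 for each Esrrb fl/fl sample. Levels are given as CPM, the counts scaled to a common library size by TMM within each experiment, so levels set side by side across the wild-type and the Esrrb fl/fl cells rest on separate scalings. Esrrb itself had 2680, 2146 and 2109 counts without 4OHT and 1211, 1333 and 1250 counts after 4OHT. All 7 embryonic stem cell markers were at 1 CPM or more in every sample. The 10 extraembryonic endoderm markers summed to between 1.95 and 11.4 CPM. The 7 trophectoderm markers summed to between 22.9 and 31.9 CPM in DMSO and Fgf2/Activin and to between 77.2 and 121 CPM in CH. The sums were 39.6 to 42.7 CPM in 2i, 41.5 to 52.9 after 4OHT and 36.8 to 48.3 without. In CH, Cdx2 (45.4 to 91.9 CPM) and Tfap2a (25.3 to 27.6 CPM) made up most of the sum. Eomes (0.954 to 3.68 CPM) and Krt7 (0.240 to 2.72 CPM) were lower in CH than in DMSO (8.33 to 13.3 and 8.22 to 20.7 CPM). Gata3, Elf5 and Hand1 stayed at or below 0.136 CPM in CH. Samples numbered 1 stood apart from those numbered 2 and 3 in many cultures. Calls that changed without all of them are given for each comparison of a polarised with a non-polarised culture.

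Every one of the 9 genes passed the filter on low counts in both experiments, Cldn9 only through the polarised groups. A gene was called where the quasi-likelihood test of edgeR, after Benjamini-Hochberg adjustment over all genes tested, gave a p under 0.01 and the log2 fold change passed 1 in either direction, which are the study's thresholds. The replicate number could also be taken as a block, since same-numbered samples deviated together, and the values with the block are given where they change a call. Samples in a group are separate by their labels only, so the p-values measure the spread between these samples.

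**Figure D1:**
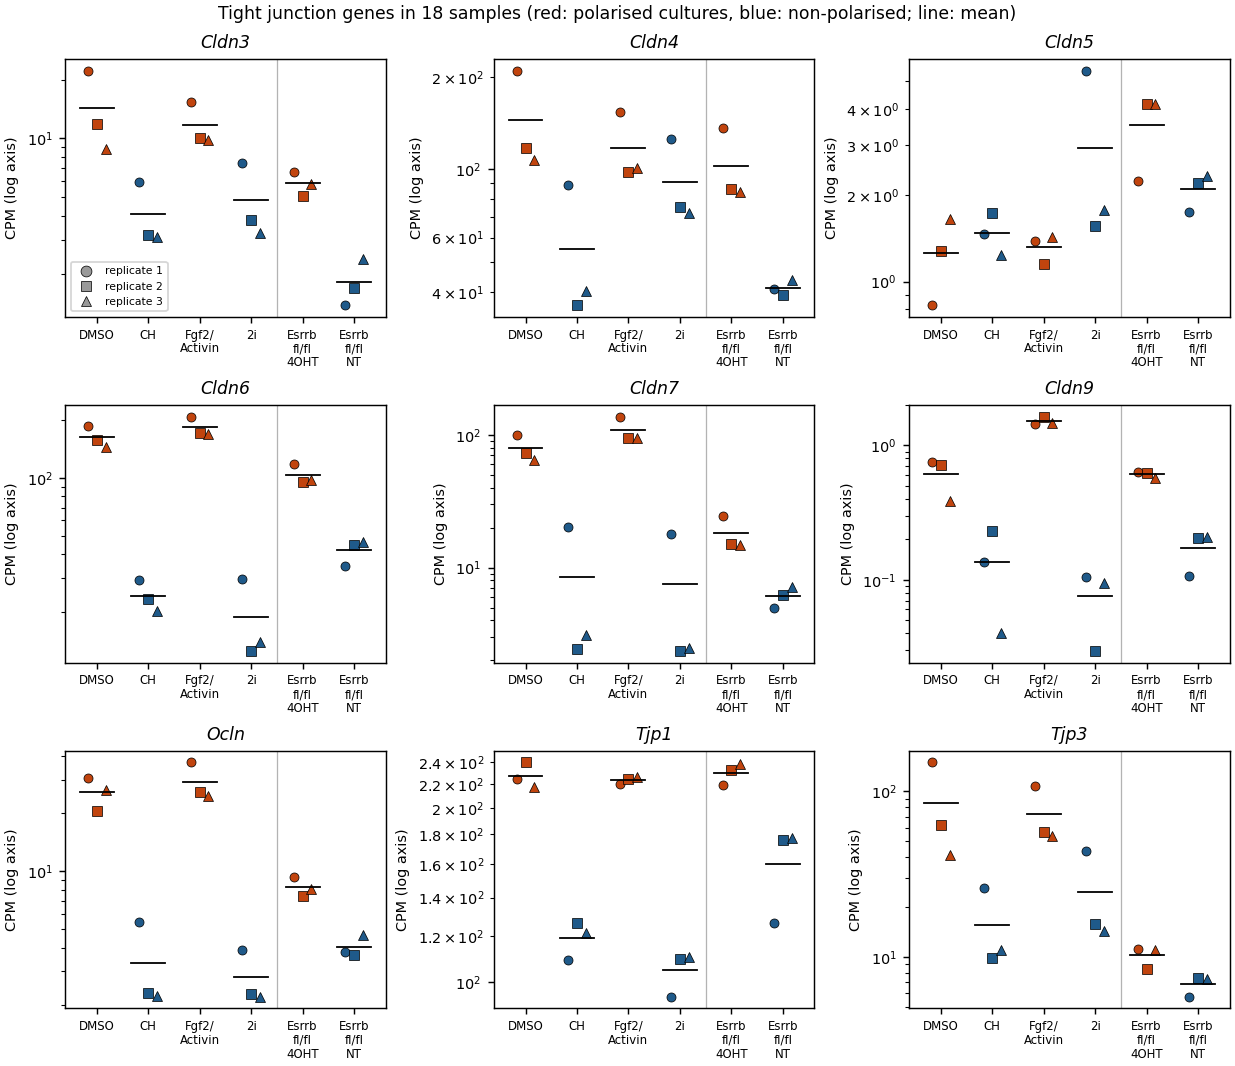
CPM (log axis) of the 9 genes in each sample, by group, with red for polarised and blue for non-polarised cultures, a symbol for each replicate number and a line at the mean of 3 samples. The vertical line parts the wild-type from the Esrrb fl/fl cells, which were scaled separately, and Cldn3, Cldn6, Cldn7, Cldn9, Ocln, Tjp1 and Tjp3 sit higher in every polarised group than in its non-polarised counterpart.

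Cldn6, a claudin of embryonic epithelia, had the lowest adjusted p among these claudins in each comparison (edgeR), although other claudins had larger fold changes. It stood at 186, 157 and 144 CPM in DMSO and at 29.6, 23.5 and 20.2 CPM in CH. It stood at 208, 172 and 169 CPM in Fgf2/Activin and at 29.9, 12.6 and 13.999 CPM in 2i. In the Esrrb fl/fl cells it reached 118, 94.6 and 97.3 CPM after 4OHT and 34.8, 44.98 and 46.6 CPM without. The polarised samples lay above the non-polarised ones with no overlap in each comparison, and the lowest polarised samples were those with Esrrb deleted. In such bulk samples, fewer cells with a transcript and less of it per cell cannot be told apart, here and for each gene that follows. Cldn6 was 6.64-fold higher in DMSO than in CH (log2 fold change 2.73 ± 0.29 SE, adjusted p = 2.93e-05, edgeR). It was 9.73-fold higher in Fgf2/Activin than in 2i (log2 3.28 ± 0.30 SE, adjusted p = 5.56e-06, edgeR). After 4OHT it was 2.45-fold higher than without (log2 1.30 ± 0.12 SE, adjusted p = 4.55e-05, edgeR).

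The Cldn6 gene lies at chr17:23679249-23682446 on the plus strand (GRCm38). RefSeq's promoter window for it starts 250 bases before the start site at 23679365. These bases are shown, 5′ to 3′, because Cldn6 was called in each comparison, and the capitals mark the letters CAGGTG, the E-box bound by Snail and Zeb factors, which repress epithelial genes.
Cldn6, chr17:23679115-23679364, plus strand: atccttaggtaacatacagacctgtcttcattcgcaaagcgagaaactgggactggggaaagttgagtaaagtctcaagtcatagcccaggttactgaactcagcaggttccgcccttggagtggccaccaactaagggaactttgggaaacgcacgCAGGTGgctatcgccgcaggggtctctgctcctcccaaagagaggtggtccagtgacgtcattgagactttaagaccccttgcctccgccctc

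Cldn9, best known from the inner ear, was the scarcest of the 9 genes per length in every group except Fgf2/Activin. It had 28, 23 and 10 counts in DMSO and 4, 7 and 1 counts in CH. It had 48, 50 and 42 counts in Fgf2/Activin and 3, 1 and 3 counts in 2i. After 4OHT it had 13, 13 and 12 counts, and without 4OHT 2, 4 and 4 counts. No non-polarised sample reached 10 counts and no polarised sample fell below that number. From the summed counts, Cldn9 was 4.53-fold higher in DMSO than in CH (95% exact interval 2.41 to 9.24, counting error only). The ratio was 20.5 between Fgf2/Activin and 2i (interval 9.68 to 51.9) and 3.51 between the cells with and without 4OHT (interval 1.72 to 7.91). The adjusted p-values were 0.00400, 3.26e-05 and 0.00259 (edgeR's quasi-likelihood test), and Cldn9 was called in each comparison. Since Cldn9 passed the filter on low counts only through the groups where it is high, these calls are partly set by the filter, and the counts of called genes are given with and without it.

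Cldn9 is on the minus strand at chr17:23682584-23684026, and 137 bases separate its 3′ end from that of Cldn6. The libraries were made with a directional kit, but the authors counted the reads without strand. Cldn9 had 0.388% of the counts of Cldn6 in DMSO, 0.574% in CH, 0.824% in Fgf2/Activin and 0.404% in 2i. With 4OHT the share was 0.590% and without it 0.411%. Both neighbours were higher in each polarised group than in its counterpart, but the share was not constant. Between Fgf2/Activin and DMSO, Cldn9 was 2.42-fold and Cldn6 1.13-fold higher, neither of them called. Whether reads running past the end of Cldn6 were counted on Cldn9 was not tested.

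Cldn7, a claudin that also sits along the lateral membrane, differed most between replicate numbers. It stood at 99.9, 73.0 and 65.0 CPM in DMSO and at 20.2, 2.42 and 3.12 CPM in CH. It stood at 137, 94.6 and 95.1 CPM in Fgf2/Activin and at 17.9, 2.36 and 2.47 CPM in 2i. After 4OHT it stood at 24.3, 15.2 and 14.8 CPM and without 4OHT at 4.94, 6.20 and 7.14 CPM. No polarised sample overlapped with its non-polarised counterparts, but replicate 1 of CH and of 2i held 7.28 and 7.43 times the mean of replicates 2 and 3. Krt7, a keratin of simple epithelia and trophectoderm, had 2.72, 0.294 and 0.240 CPM in CH and 6.65, 0.383 and 0.469 CPM in 2i, in the order of the replicate numbers. It was chosen after its values were seen, and of the trophectoderm markers Eomes, Cdx2 and Tfap2a none was highest in replicate 1 of both cultures. Eomes had 0.954, 3.499 and 3.68 CPM in CH, Cdx2 had 91.9, 54.1 and 45.4 CPM in CH but 7.07, 10.5 and 12.7 CPM in 2i, and Tfap2a ran from 22.6 to 27.6 CPM over both. Gata3, Elf5 and Hand1 stayed at or below 0.313 CPM there. The part of these markers in the Cldn7 values was not tested.

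With that spread, Cldn7 was 9.22-fold higher in DMSO than in CH without passing the threshold (log2 3.20 ± 0.87 SE, adjusted p = 0.0120, edgeR). It was 14.5-fold higher in Fgf2/Activin than in 2i (log2 3.86 ± 0.90 SE, adjusted p = 0.00396, edgeR) and 2.96-fold higher after 4OHT (log2 1.57 ± 0.22 SE, adjusted p = 0.000389, edgeR). With the replicate block it was called between DMSO and CH as well (log2 3.63 ± 0.51 SE, adjusted p = 0.000110, edgeR). Without all samples numbered 1, an alternative added after the values were seen, the log2 fold changes were 4.65 and 5.29 in the wild-type cultures and 1.16 after 4OHT. Within the same replicate number the ratio of DMSO to CH was 4.95 for number 1, 30.1 for number 2 and 20.8 for number 3.

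Cldn7 lies at chr11:69964779-69967885 on the plus strand, with a pair of RefSeq start sites. The window of the upstream start, at 69964779, holds no CAGGTG on either strand. The bases before the downstream start, at 69965421, are shown because this window holds a pair of E-boxes, in capitals, at -97 and -57 from the start.
Cldn7, chr11:69965171-69965420, plus strand: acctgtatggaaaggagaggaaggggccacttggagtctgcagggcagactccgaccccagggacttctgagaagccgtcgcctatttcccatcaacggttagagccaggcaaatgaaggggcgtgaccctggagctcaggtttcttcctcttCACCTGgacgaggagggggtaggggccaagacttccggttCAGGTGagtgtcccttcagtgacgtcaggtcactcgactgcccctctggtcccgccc

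Cldn3 and Cldn4, barrier-forming claudins that both serve as receptors of a clostridial enterotoxin, lie next to each other on chromosome 5. Cldn3 (chr5:134986214-134987472, plus strand) stood at 22.3, 11.9 and 8.83 CPM in DMSO and at 5.93, 3.17 and 3.12 CPM in CH. It stood at 15.4, 10.02 and 9.80 CPM in Fgf2/Activin and at 7.45, 3.80 and 3.25 CPM in 2i. After 4OHT it stood at 6.72, 5.02 and 5.83 CPM and without at 1.38, 1.69 and 2.38 CPM. Of its exon length, 3.18% overlaps Wbscr25. The groups were apart in every comparison, although replicate 1 of 2i came close to the lower Fgf2/Activin samples. Cldn3 was 3.52-fold higher in DMSO than in CH (log2 1.82 ± 0.43 SE, adjusted p = 0.00539, edgeR) and 3.21-fold higher after 4OHT (log2 1.68 ± 0.22 SE, adjusted p = 0.000251, edgeR). Between Fgf2/Activin and 2i the log2 fold change of 1.28 ± 0.42 SE missed the threshold (adjusted p = 0.0240, edgeR), and with the replicate block it was called (log2 1.34 ± 0.14 SE, adjusted p = 7.26e-06, edgeR).

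Cldn4 (chr5:134945119-134946934, minus strand) stood at 209, 117 and 108 CPM in DMSO and at 89.0, 36.2 and 40.2 CPM in CH. It stood at 154, 97.8 and 101 CPM in Fgf2/Activin and at 125, 75.5 and 72.2 CPM in 2i. After 4OHT it stood at 137, 86.3 and 84.7 CPM and without at 40.9, 39.0 and 43.6 CPM. DMSO and CH did not overlap, nor did the cells with and without 4OHT, but replicate 1 of 2i exceeded the lower Fgf2/Activin samples. Cldn4 was called after 4OHT (2.49-fold, log2 1.32 ± 0.17 SE, adjusted p = 0.000261, edgeR). Between DMSO and CH the log2 fold change was 1.39 ± 0.38 SE without the call (adjusted p = 0.0129, edgeR) and 1.44 ± 0.11 SE with it under the replicate block (adjusted p = 1.08e-06, edgeR). Between Fgf2/Activin and 2i it was 0.37 ± 0.38 SE (adjusted p = 0.439, edgeR). Under the replicate block that comparison gave 0.39 ± 0.11 SE (adjusted p = 0.00710, edgeR), below the minimum fold.

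Cldn5 (chr16:18776847-18778262, plus strand), the main claudin of endothelial barriers, had 0.827, 1.28 and 1.66 CPM in DMSO and 1.46, 1.73 and 1.24 CPM in CH. It had 1.38, 1.15 and 1.43 CPM in Fgf2/Activin and 5.43, 1.56 and 1.78 CPM in 2i. After 4OHT it had 2.24, 4.16 and 4.16 CPM and without 1.75, 2.20 and 2.33 CPM. Its groups overlapped between DMSO and CH and between the Esrrb fl/fl cells, and the 2i samples lay above Fgf2/Activin. No comparison called it: the log2 fold changes were -0.25 ± 0.45 SE, -1.14 ± 0.44 SE and 0.75 ± 0.27 SE, with adjusted p-values of 0.695, 0.0512 and 0.0380 (edgeR). Replicate 1 of 2i was the highest sample, and without all samples numbered 1 the value between Fgf2/Activin and 2i was -0.38. The 8 endothelial markers summed to between 82.0 and 118 CPM in 2i and to between 22.7 and 26.3 CPM in Fgf2/Activin, in the same direction as Cldn5. In the Esrrb fl/fl cells they summed to between 61.5 and 71.5 CPM after 4OHT and to between 101 and 104 CPM without. That direction is opposite to that of Cldn5. They summed to between 25.3 and 38.9 CPM in DMSO and to between 47.2 and 56.2 CPM in CH, where the Cldn5 samples overlapped. Pecam1, which ES cells also express, made up most of the sum in 2i, with 96.5, 74.5 and 73.8 CPM there and 12.5, 10.6 and 10.5 CPM in Fgf2/Activin. Vwf had 12.6, 2.48 and 2.44 CPM in 2i, and Tek was lower in 2i (8.88, 5.81 and 5.28 CPM) than in Fgf2/Activin (10.2, 11.5 and 11.02 CPM). Of the others, Emcn had no count in any sample, and Cdh5, Kdr, Tie1 and Erg stayed at or below 0.383 CPM in both cultures. The part of these markers in the Cldn5 values was not tested.

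Ocln, at chr13:100496507-100552718 on the minus strand, stood at 30.6, 20.6 and 26.4 CPM in DMSO and at 5.41, 2.32 and 2.24 CPM in CH. It stood at 37.0, 25.96 and 24.5 CPM in Fgf2/Activin and at 3.87, 2.30 and 2.22 CPM in 2i. After 4OHT it stood at 9.34, 7.42 and 8.08 CPM and without at 3.77, 3.64 and 4.66 CPM. The groups were apart in each comparison, by a wide margin in the wild-type cultures and by a narrow one after Esrrb deletion. Occludin was 7.74-fold higher in DMSO than in CH (log2 2.95 ± 0.36 SE, adjusted p = 7.34e-05, edgeR) and 10.5-fold higher in Fgf2/Activin than in 2i (log2 3.39 ± 0.37 SE, adjusted p = 2.01e-05, edgeR). After 4OHT it was 2.06-fold higher (log2 1.04 ± 0.16 SE, adjusted p = 0.000511, edgeR), just above the minimum fold.

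RefSeq lists a pair of Ocln start sites. The bases before the one at 100552498 are shown because Ocln was called in each comparison, and E-boxes at -213 and -68 from the start are in capitals.
Ocln, chr13:100552499-100552748, minus strand: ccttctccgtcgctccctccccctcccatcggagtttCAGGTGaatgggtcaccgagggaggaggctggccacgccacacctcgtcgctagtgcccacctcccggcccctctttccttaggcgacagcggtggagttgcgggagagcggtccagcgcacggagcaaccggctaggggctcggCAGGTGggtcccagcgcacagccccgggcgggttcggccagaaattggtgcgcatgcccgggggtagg

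Tjp1, the scaffold ZO-1, at chr7:65296165-65527781 on the minus strand, had the smallest replicate spread relative to its mean in each wild-type culture. It stood at 224, 239.9 and 217 CPM in DMSO and at 109, 127 and 121 CPM in CH. It stood at 220.2, 224 and 226 CPM in Fgf2/Activin and at 94.4, 109.6 and 110.5 CPM in 2i. After 4OHT it stood at 219, 232 and 239 CPM and without at 126, 176 and 178 CPM. In the cells without 4OHT, its spread relative to the mean (160 ± 29.0 CPM, SD) exceeded that of Cldn4 (41.1 ± 2.30 CPM, SD). All polarised samples lay in a narrow band and above every non-polarised sample of the same experiment. The log2 fold change was 0.93 ± 0.08 SE between DMSO and CH, below the minimum fold despite an adjusted p of 5.40e-06 (edgeR). It was 1.09 ± 0.08 SE between Fgf2/Activin and 2i (adjusted p = 9.62e-07, edgeR), which was called. After 4OHT the value was 0.52 ± 0.12 SE (adjusted p = 0.00452, edgeR), again below the minimum fold.

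Tjp3, the scaffold ZO-3, which is found mainly in epithelia, lies at chr10:81273207-81291581 on the minus strand and varied far more in the wild-type cultures. Of its exon length, 1.08% overlaps Apba3, whose reads cannot be parted from it without strand. It stood at 149.8, 62.3 and 41.5 CPM in DMSO and at 26.02, 9.78 and 11 CPM in CH. It stood at 107, 57.0 and 54.0 CPM in Fgf2/Activin and at 43.7, 15.7 and 14.2 CPM in 2i. After 4OHT it stood at 11.2, 8.47 and 11 CPM and without at 5.74, 7.43 and 7.29 CPM. Replicate 1 was the highest sample in each wild-type culture, and the groups were still apart in each comparison. Tjp3 was 5.42-fold higher in DMSO than in CH (log2 2.44 ± 0.61 SE, adjusted p = 0.00754, edgeR). Between Fgf2/Activin and 2i the log2 fold change was 1.57 ± 0.59 SE (adjusted p = 0.0436, edgeR) and, with the replicate block, 1.69 ± 0.15 SE with the call (adjusted p = 2.31e-06, edgeR). After 4OHT it was 0.58 ± 0.16 SE (adjusted p = 0.0115, edgeR). The block lowered that adjusted p to 0.00307 at a log2 fold change of 0.58, below the minimum fold.

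For contrast with the E-box windows, the 250 bases before the Tjp1 start at 65371244 are shown, which hold no CAGGTG on either strand. Capitals are absent for that reason.
Tjp1, chr7:65371245-65371494, minus strand: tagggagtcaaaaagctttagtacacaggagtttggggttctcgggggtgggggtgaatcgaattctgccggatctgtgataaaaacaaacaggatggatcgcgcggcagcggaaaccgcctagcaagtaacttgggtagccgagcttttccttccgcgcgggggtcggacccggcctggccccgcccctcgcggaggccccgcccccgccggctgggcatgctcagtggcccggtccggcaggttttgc

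RefSeq's table (GRCm38.p6) gave windows of 300 bases, from 250 before to 50 after a start, for 8 of the 9 genes, 11 windows in all. Cldn9 had none. The E-box CAGGTG, searched on both strands, was found in 8 of the 11 windows, of 6 genes, and in 20.2% of all 32851 mouse windows. The overlapping Ocln windows share 1 of these sites. GGGCGGG, the letters bound by KLF and SP factors, was found in 5 of the 11 windows, of 4 genes, and in 25.6% of all. AAGGTCA (Esrrb), ATCAAAG (TCF/LEF) and ACCGGTT (grainyhead-like factors) were in none of the 11 and in 4.72%, 3.73% and 1.02% of all windows. These are matches of letters and show no binding.

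In Cldn4 and Cldn3, E-boxes lay close to the start, at -14 and +11 in Cldn4 and at +31 in Cldn3. The Cldn4 site at -14 and the Cldn3 site are shown with their flanks, again with the E-box in capitals. The Cldn4 site at +11 is not shown.
Cldn4, chr5:134946931-134946960, minus strand: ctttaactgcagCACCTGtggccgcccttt
Cldn3, chr5:134986233-134986262, plus strand: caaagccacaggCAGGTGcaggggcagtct

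**Figure D2:**
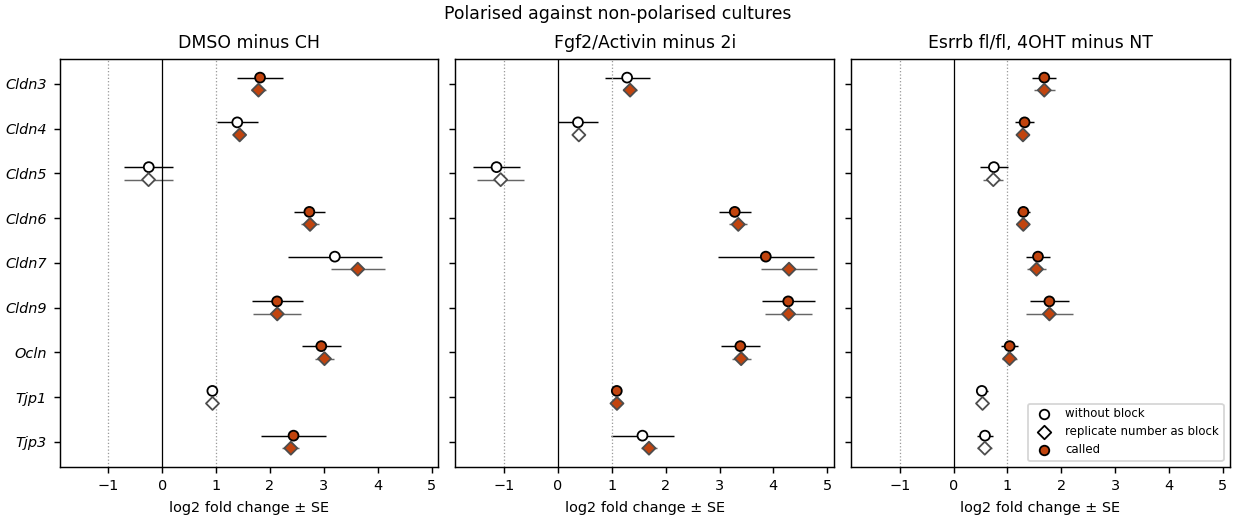
Log2 fold changes with SE of the 9 genes in the 3 comparisons of a polarised with a non-polarised culture, as circles without and as diamonds with the replicate number as a block, filled where the gene was called. Dotted lines mark a log2 fold change of 1 in either direction, and only Cldn5 lies below 0, in the wild-type comparisons.

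Between DMSO and CH, 5 of the 9 genes were called higher in DMSO and none lower, against 10.2% of all genes tested called higher and 7.51% called lower. These were Cldn3, Cldn6, Cldn9, Ocln and Tjp3, or 4 of 8 with Cldn9 not counted. With the replicate block Cldn4 and Cldn7 joined them (7 of 9, or 6 of 8 without Cldn9, and none lower). Of all genes, 12.7% were then called higher and 9.27% lower. The 3 DMSO samples lay above the 3 CH samples for 8 of the 9 genes (7 of 8 without Cldn9) and for 25.2% of all genes. They lay below them for none of the 9 and for 24.5% of all genes. The median log2 fold change of the 9 was 2.13, the same without Cldn9, and that of all genes 0.00. Cldn6 and Ocln were called in every fit that left out 1 sample. The call of Tjp3 was lost without DMSO replicate 1, DMSO replicate 2, CH replicate 2 or CH replicate 3, with an adjusted p of up to 0.0348 (edgeR). That of Cldn3 was lost without DMSO replicate 1, CH replicate 2 or CH replicate 3 (up to 0.0267), and that of Cldn9 without DMSO replicate 1 or 2 or CH replicate 1 or 3 (up to 0.0152). Without CH replicate 1, Cldn4 and Cldn7 were called. Without all samples numbered 1 these were called too, and Cldn9 was not (adjusted p = 0.0110, edgeR). In a fit of only the 6 samples of this comparison, Cldn6 and Ocln alone were called.

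Between Fgf2/Activin and 2i, 5 of the 9 genes were called higher in Fgf2/Activin and none lower, against 14.4% of all genes called higher and 9.13% called lower. These were Cldn6, Cldn7, Cldn9, Ocln and Tjp1, or 4 of 8 with Cldn9 not counted. The replicate block added Cldn3 and Tjp3 (7 of 9, or 6 of 8 without Cldn9, and none lower). Of all genes, 16.7% were then called higher and 10.9% lower. The Fgf2/Activin samples lay above the 2i samples for 7 of the 9 (6 of 8 without Cldn9), against 32.0% of all genes. They lay below them for Cldn5, against 31.1% of all genes. The median log2 fold change was 1.57, or 1.43 without Cldn9, against 0.00 over all genes. The call of Cldn7 was lost without 2i replicate 2, 2i replicate 3 or Fgf2/Activin replicate 1 (adjusted p up to 0.0179, edgeR), and Cldn3 was called without 2i replicate 1. Without all samples numbered 1, Cldn3 and Tjp3 were called too and no call was lost.

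After Esrrb deletion, 6 of the 9 genes were called higher and none lower, against 12.8% of all genes called higher and 3.87% called lower. They were Cldn3, Cldn4, Cldn6, Cldn7, Cldn9 and Ocln, or 5 of 8 with Cldn9 not counted. The replicate block gave these 6 again (5 of 8 without Cldn9), against 13.5% of all genes higher and 4.24% lower. The samples with 4OHT lay above those without for 8 of the 9 (7 of 8 without Cldn9), against 34.4% of all genes. They lay below them for none, against 31.5%. The median log2 fold change was 1.30, or 1.17 without Cldn9, against 0.00 over all genes. The call of Ocln, at a log2 fold change near 1, was lost without replicate 1 of the 4OHT group or replicate 1 or 2 of the other, where it lay as low as 0.95, and without all samples numbered 1 (0.90). That of Cldn9 was lost without replicate 2 of the 4OHT group or replicate 1 or 2 of the other (adjusted p up to 0.0114, edgeR). With all 18 samples in 1 fit, which shares the spread of the wild-type cultures, Cldn7 and Ocln were not called (adjusted p = 0.112 and 0.0157, edgeR).

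Called in all 3 comparisons, which share no sample, were Cldn6, Cldn9 and Ocln, 3 of the 9 genes, against 3.34% of the 14535 genes tested in both experiments. With the replicate block Cldn3 and Cldn7 were too (5 of 9, against 4.32%). With Cldn9 not counted these were 2 of 8 genes and 4 of 8 with the block. Polarised samples lay above non-polarised samples in all 3 comparisons for 7 of the 9 genes, all but Cldn4 and Cldn5, or 6 of 8 with Cldn9 not counted, against 9.76% of all genes.

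**Figure D3:**
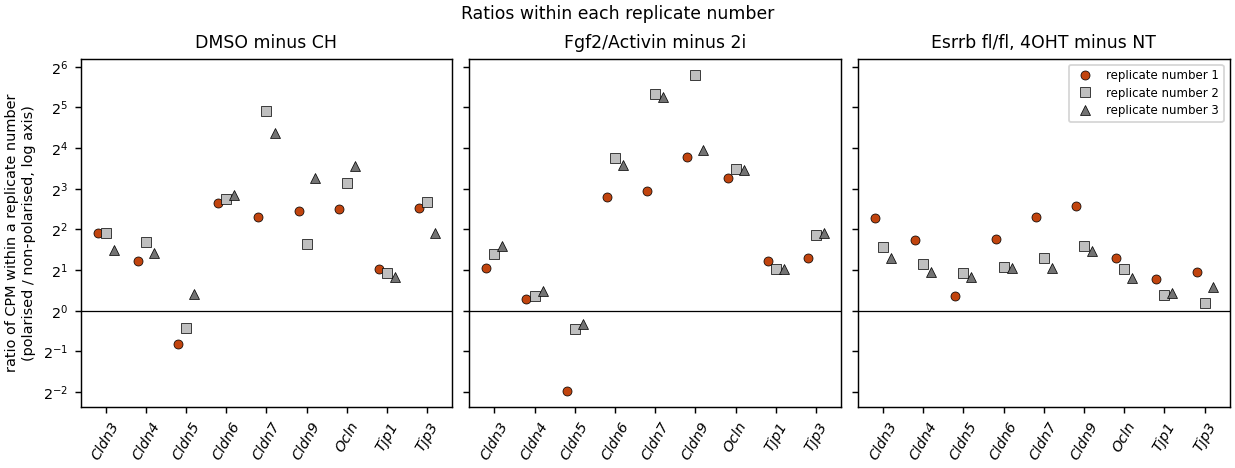
Ratio of CPM in the polarised to the non-polarised sample of the same replicate number (log axis, base 2) for the 9 genes in the 3 comparisons, with a line at equal levels. For Cldn7 the ratio of number 1 lies below those of numbers 2 and 3 in the wild-type cultures (4.95 against 30.1 and 20.8 for DMSO over CH) and above them in the Esrrb fl/fl cells (4.91 against 2.45 and 2.07).

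The sizes of the comparisons were tested against each other. The difference between the Fgf2/Activin minus 2i and the DMSO minus CH fold changes was not called for any of the 9 genes, against 1.68% of all genes called higher and 0.494% called lower. The largest was that of Cldn9, 2.14 ± 0.74 SE (adjusted p = 0.117, edgeR), and it was the 1 gene of the 9 at an unadjusted p under 0.05. DESeq2 called none. For Cldn4 it was -1.02 ± 0.53 SE (adjusted p = 0.321, edgeR). With the replicate block it was -1.05 ± 0.15 SE (adjusted p = 0.000918, edgeR), and Cldn4 was then called, as 1.6% of all genes were in that direction and 3.73% in the other. Cldn4 differed less between Fgf2/Activin and 2i than between DMSO and CH under the block.

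The fold change after Esrrb deletion was smaller than that between DMSO and CH for Cldn6 (difference -1.48 ± 0.35 SE, adjusted p = 0.00335, edgeR) and for Ocln (-1.95 ± 0.43 SE, adjusted p = 0.00208, edgeR). These were 2 of the 9 genes, against 5.85% of all genes called in this direction and 8.95% in the other, where none of the 9 was called. Tjp3 joined them with the replicate block (-1.85, adjusted p = 2.99e-05, edgeR), against 7.42% of all genes in this direction and 11.4% in the other. Cldn7 differed by -1.68 ± 1.02 SE (adjusted p = 0.212, edgeR), and without CH replicate 1 it was called. The call of Cldn6 was lost without CH replicate 3, replicate 2 or 3 of the 4OHT group, or replicate 3 of the group without 4OHT. These comparisons also differ in cell line, passage and hours of culture, so the part of Esrrb deletion in the difference cannot be told apart from theirs.

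Among cultures of the same state, no gene of the 9 was called. The log2 fold changes between Fgf2/Activin and DMSO ran from -0.30 for Cldn4 to 1.27 for Cldn9, with a lowest adjusted p of 0.0894 (edgeR), against 0.902% of all genes called higher and 0.347% called lower. At an unadjusted p under 0.05 there was 1 gene, Cldn9. Those between 2i and CH ran from -0.87 for Cldn9 to 0.97 for Cldn5, with a lowest adjusted p of 0.215 (edgeR), against 0.317% called higher and 1.67% called lower. Here Tjp1 was the only gene at an unadjusted p under 0.05, with a log2 fold change of -0.18. Under the replicate block Cldn4 had an adjusted p of 0.000641 (edgeR) between 2i and CH, at a log2 fold change of 0.79 and so without a call. The block called none of the 9 in either comparison, against 1.68% of all genes higher and 0.908% lower in Fgf2/Activin and 0.841% higher and 3.25% lower in 2i. DESeq2 called none either, with no adjusted p for Cldn7.

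Compared per length, Cldn6 led the 9 genes in all 3 polarised groups, with 94.3 ± 12.3 CPM per kb of exon in DMSO, 106 ± 12.7 in Fgf2/Activin and 60.1 ± 7.59 after 4OHT (SD, n = 3). Cldn4 followed with 79.7 ± 30.8, 64.8 ± 17.4 and 56.5 ± 16.3 CPM per kb, so the pair overlapped in DMSO and after 4OHT. In CH and 2i Cldn4 led instead, with 30.3 ± 16.2 and 50.1 ± 16.3 CPM per kb, followed by Tjp1 with 15.3 ± 1.14 and 13.4 ± 1.16. Without 4OHT Cldn6, Cldn4 and Tjp1 lay close together, at 24.5 ± 3.71, 22.7 ± 1.27 and 20.5 ± 3.72 CPM per kb. Ocln never passed 6.91 CPM per kb in the group means.

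The summed level of all 26 claudin genes with a count was higher in each polarised group than in its counterpart. It was 243 ± 56.8 CPM per kb in DMSO and 72.4 ± 23.4 in CH, 254 ± 44.6 in Fgf2/Activin and 87.8 ± 28.8 in 2i, and 149 ± 26.8 with 4OHT and 64.2 ± 4.81 without (SD, n = 3). The ranges of the samples did not overlap within any of these pairs, and no test was made on the sum.

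**Figure D4:**
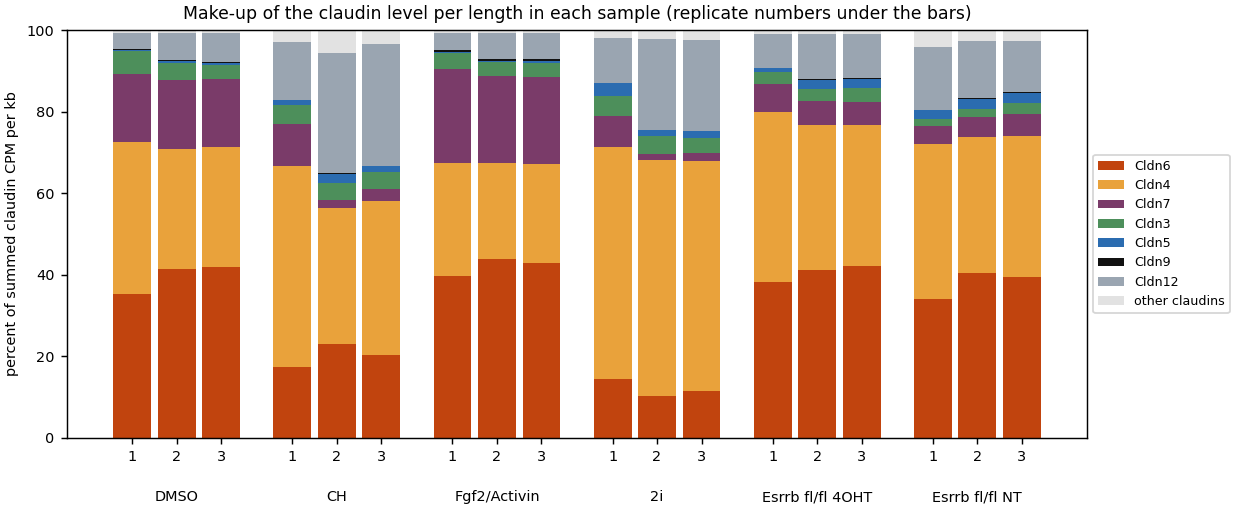
Percent of the summed claudin CPM per kb taken by each claudin in each of the 18 samples, with replicate numbers under the bars. The share of Cldn6 is near 40% in the polarised wild-type cultures and lower in CH and 2i, where Cldn4 and Cldn12 take more. Shares are relative, so a larger share need not mean a higher level.

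The make-up of the claudin level differed between the wild-type states. Cldn6 made up 39.4% ± 3.74 of it in DMSO and 20.1% ± 2.81 in CH, and 42.1% ± 2.20 in Fgf2/Activin and 12.0% ± 2.13 in 2i (SD, n = 3). Cldn7 made up 16.8% ± 0.202 in DMSO and 5.08% ± 4.63 in CH, and 21.9% ± 1.02 in Fgf2/Activin and 3.70% ± 3.39 in 2i. Cldn4 took 57.1% ± 0.715 in 2i, more than in any other group, and Cldn12, a claudin that was not called in any comparison, took 24.5% ± 8.97 in CH.

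In the Esrrb fl/fl cells the shares of the leading claudins lay closer together. Cldn6 made up 40.4% ± 2.04 with 4OHT and 38.0% ± 3.37 without, Cldn4 37.3% ± 3.83 and 35.3% ± 2.41, and Cldn7 6.13% ± 0.685 and 4.84% ± 0.526 (SD, n = 3). The sample ranges overlapped for Cldn6 and Cldn4 and were apart for Cldn7. Cldn7, with transcripts of several lengths, depended on the length used: by the longest transcript its share was 22.1% in DMSO and 28.2% in Fgf2/Activin.

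The rest of the junction was read from lists written with earlier results of these data known. Of the other 29 claudin genes, 20 had a count and 6 were tested in the wild-type cultures. There, 2 were called higher in DMSO than in CH (Cldn1 and Cldn8) and 1 lower (Cldn15), and Cldn1 and Cldn8 were called higher in Fgf2/Activin than in 2i, shares to be read against the same percentages of all genes as for the 9. Cldn1 and Cldn8 passed the filter on low counts only through polarised cultures, so their calls, like those of Cldn9, are partly set by the filter. Cldn1, a claudin of the skin barrier, had 131 counts over the DMSO and 5 over the CH samples, a ratio of 23.3 (95% exact interval 9.75 to 73.1). It had 153 counts in Fgf2/Activin and none in 2i, so it was at least 52.2-fold higher there, against a floor of 3 counts over the group. Cldn8, named after its values were seen, had no count in CH or 2i and was at least 12.8-fold and 6.82-fold higher in DMSO and Fgf2/Activin. Cldn15 stood at 0.766 ± 0.549 CPM in DMSO and 4.41 ± 1.28 CPM in CH (SD, n = 3), a log2 fold change of -2.49 ± 0.44 SE (adjusted p = 0.000949, edgeR). The 2 other claudins tested in the Esrrb fl/fl cells, Cldn12 and Cldn15, were not called. Cldn12 was higher after 4OHT, with no overlap of samples, at a log2 fold change of 0.72 ± 0.05 SE (adjusted p = 1.63e-05, edgeR), below the minimum fold.

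Of 25 other junction components, 24 were tested. Between DMSO and CH 8 were called higher in DMSO and 4 lower, against 10.2% and 7.51% of all genes, with a median log2 fold change of 0.45. Between Fgf2/Activin and 2i the counts were 9 and 3, against 14.4% and 9.13%, with a median of 0.37. After 4OHT they were 6 and 2, against 12.8% and 3.87%, with a median of 0.27. The medians over all genes were 0.00. Lsr, the angulin that recruits tricellulin to the corners where cells meet, was higher in each polarised group, by log2 fold changes of 1.47 ± 0.18 SE, 2.08 ± 0.19 SE and 1.35 ± 0.10 SE. Marveld2, which encodes tricellulin, showed 2.40 ± 0.16 SE, 2.50 ± 0.16 SE and 1.64 ± 0.18 SE, and Marveld3, a relative of occludin, showed 2.76 ± 0.42 SE, 3.00 ± 0.43 SE and 3.39 ± 0.24 SE. The junctional adaptor cingulin (Cgn) showed 2.99 ± 0.20 SE, 3.54 ± 0.21 SE and 1.47 ± 0.18 SE, and the PDZ scaffold Mpdz 2.04 ± 0.17 SE, 3.45 ± 0.18 SE and 1.67 ± 0.21 SE. All 5 were called in each comparison, with adjusted p-values of 0.000375 or lower (edgeR's quasi-likelihood test).

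Not every component moved that way. Ildr1, another angulin, was lower in each polarised group, at log2 fold changes of -2.41 ± 0.13 SE, -2.60 ± 0.13 SE and -1.78 ± 0.14 SE, and so was the adhesion molecule Jam2, at -6.85 ± 0.25 SE, -7.22 ± 0.23 SE and -4.21 ± 0.20 SE. Both were called in each comparison (edgeR's quasi-likelihood test). Jam3 was lower in DMSO (-1.02 ± 0.21 SE) and in Fgf2/Activin (-2.14 ± 0.22 SE) and was not called after 4OHT. Esam was called lower in DMSO than in CH although its samples overlapped. Cgnl1 (paracingulin) and the angulin Ildr2 were called higher in both wild-type comparisons and not after 4OHT. There Cgnl1 stood at -0.87 ± 0.23 SE (adjusted p = 0.0101, edgeR) and Ildr2 at 1.67 ± 0.49 SE (adjusted p = 0.0175, edgeR). Patj, a scaffold of the Crumbs complex, was called in Fgf2/Activin and after 4OHT and had its highest value there, 2.97 ± 0.10 SE.

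**Figure D5:**
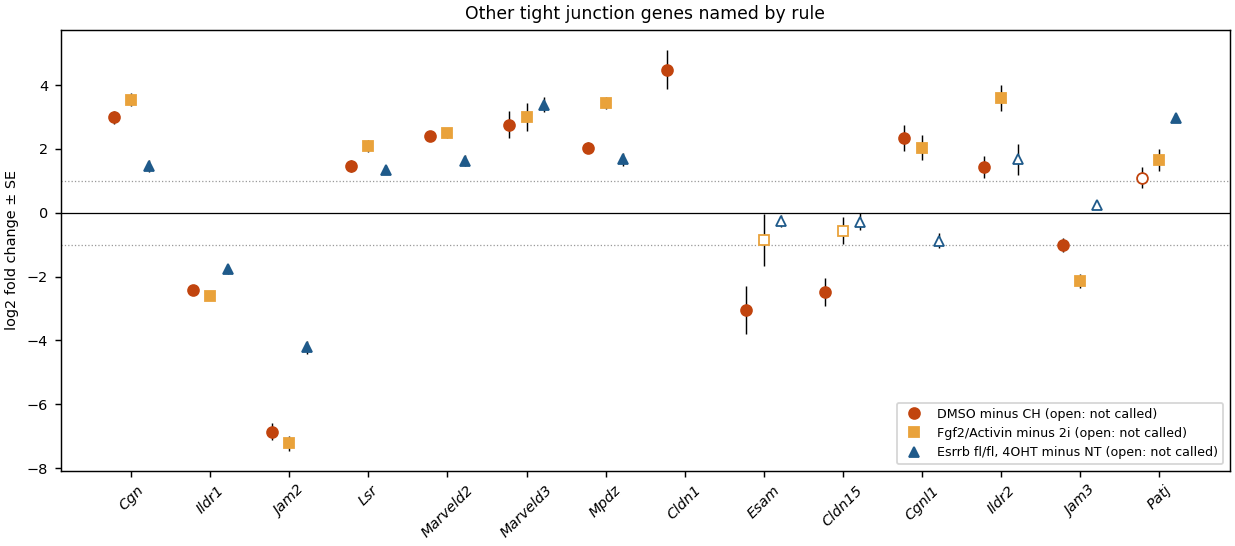
Log2 fold changes with SE of the other junction genes named by rule, in the 3 comparisons, with open symbols where the gene was not called. Cldn1 between Fgf2/Activin and 2i is left out, since it had no count in 2i, and it was not tested in the Esrrb fl/fl cells. Ildr1 and Jam2 lie below 0 in all 3 comparisons.

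The genes most like each called member were sought among 13024 protein-coding genes by the root mean square difference of log2(CPM + 1) over the 18 samples, after each gene's mean within its experiment was removed. For Cldn6 they were Clip1, a microtubule plus-end protein, at 0.18 and Ocln at 0.25, where Cldn6's own deviation was 1.31. For Ocln they were Mal2, a protein of transport to the apical membrane, at 0.22 and Clip1 at 0.23, where its own deviation was 1.22. For Tjp3 they were Atp1b2 at 0.25 and Crb3, of the apical Crumbs complex, at 0.25. For Cldn7 they were the kinase gene Stk39 at 0.57 and Prss8, which encodes the membrane protease prostasin, at 0.57. The own deviation of Cldn7, 1.78, was also the largest. For Cldn3 they were Ralgps1 at 0.18 and Nuak2 at 0.21, for Cldn4 Clic1 at 0.17 and Vamp8 at 0.20, for Tjp1 Kctd17 at 0.09 and Stard4 at 0.12. For Cldn9 they were Plekhg4 and Cdon at 0.14 each, where its own deviation was 0.43. All points share libraries, so these are descriptions of the 18 samples.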

How the data were processed

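Poly(A) RNA of 18 samples was sequenced after a directional library preparation. Per the methods, TopHat2 placed reads on mm10 and HTSeq assigned them, ignoring strand, to genes of the Ensembl annotation (GRCm38). The authors deposited these raw counts without normalisation. The members, gene lists, motifs and the rule for named genes were chosen with earlier results of these data known. By that rule, named genes are the 9 members, other junction genes called the same way in all 3 comparisons or among the 4 other largest changes in a comparison (mean of at least 10 counts), the 2 genes nearest to each called member, and marker genes set beside a result. Counts were fitted with edgeR 4.0.16 (TMM, filterByExpr, glmQLFit, glmQLFTest), the 12 wild-type samples in 1 fit, the 6 Esrrb fl/fl samples in another and all 18 for the difference of their effects. Genes tested numbered 16413 and 14893. The SE is the log2 fold change over the root of the F statistic. Code was tested on simulated data. Alternatives were DESeq2 1.42.0 size factors or Wald test, no filter, the replicate block, other sample sets, no minimum fold and each replicate left out. Deviations of same-numbered samples from their group means correlated at 0.312 to 0.825 in every pair, across 12220 genes, so the numbers, which come from the labels, were taken to pair the samples, although those numbered 2 and 3 also deviated together (0.286 to 0.710). Replicates differed by more than sampling noise. No transcript of a member shared 75 bases at 95% identity with another gene (blastn 2.17.0). Positions came from GENCODE's GRCm38 annotation. Depth sets the precision of low genes, and intervals cover counting error only. The values of 1 further gene are not reported here.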

Additional observations from a re-analysis of the deposited data

Results flagged for a closer look

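The fold changes of Cldn6 and Ocln differed between the Esrrb and the DMSO against CH comparison by the test of the difference itself. For Cldn6 the log2 difference was -1.48 and for Ocln -1.95, both smaller after Esrrb deletion. These comparisons differ in cell line, passage and time as well. In groups of 3 samples no separate test for an outlying sample was made, although the samples numbered 1 of CH and 2i stood far above the others for Cldn7. DESeq2's default check for outlying counts was part of its test, which left Cldn7 without an adjusted p in the wild-type cultures.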

How the results depend on the processing

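The number of the 9 genes called between DMSO and CH, 5 as reported, was 2 in a fit of the 6 samples compared and 2 to 6 with 1 sample left out. For the difference between the culture comparisons, none as reported, it was 1 with the replicate block and 1 without all samples numbered 1. For the difference between the Esrrb and the DMSO against CH comparison, 2 as reported, it was 4 without all samples numbered 1 and 1 to 3 with 1 sample left out. Between Fgf2/Activin and DMSO, the log2 fold change of Cldn4, -0.30 as reported, ran from -0.54 to 0.064 with 1 sample left out and turned without DMSO replicate 1. That of Cldn5, 0.08 as reported, ran from -0.15 to 0.33, turning without the same sample, and was -0.18 without all samples numbered 1. With 1 sample left out, no direction of the 9 genes turned in the 3 comparisons of polarised with non-polarised cultures. Uncalled values turned for 6 genes between Fgf2/Activin and DMSO (Cldn3, Cldn4, Cldn5, Ocln, Tjp1 and Tjp3) and for 4 between 2i and CH (Cldn3, Cldn7, Ocln and Tjp3), and for 2 and 3 genes in the differences between the culture comparisons and between the Esrrb and the DMSO against CH comparison. By the longest transcript in place of exon length, 9 of 42 claudin shares moved by more than their SD. DESeq2's test gave no adjusted p for Cldn7 in the wild-type cultures, so Cldn7 was not called between Fgf2/Activin and 2i. It called Cldn4 between DMSO and CH, Cldn3 between Fgf2/Activin and 2i, and not Cldn9 after 4OHT. Without a filter on low counts Cldn4 and Cldn7 were called between DMSO and CH. DESeq2's size factors changed no call of the 9 genes and moved no level by more than its SD. The replicate block changed the calls given with it and no other call among the 9. Over all genes, it raised the calls between Fgf2/Activin and DMSO from 205 to 424, between 2i and CH from 326 to 672 and for the difference between the culture comparisons from 356 to 876. DESeq2 gave 374, 597 and 769, and fits of the 6 samples compared gave 87 and 100 for the first pair. Without a minimum fold, calls rose from 2907 to 4750 between DMSO and CH, from 3857 to 6193 between Fgf2/Activin and 2i, from 2485 to 6621 after 4OHT and from 2520 to 4350 for the difference between the Esrrb and the DMSO against CH comparison, and Tjp1 was then called between DMSO and CH and after 4OHT. The alternatives without samples numbered 1 and with Cldn9 not counted were chosen after seeing the data. Low counts limit the precision for Cldn9, Cldn1, Cldn8, Ildr2 and Esam, among others.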
